A study of Oryza longistaminata with 12 samples.

Results

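Whether the ammonium given to one ramet alters how the root of its connected partner responds to ammonium of its own was examined as an interaction between both supplies. All 12 root libraries of the series entered this comparison, and 25005 of the 29335 gene models in the count table were tested in all of them. Ramets of *Oryza longistaminata*, a wild rice that spreads by rhizomes, were used as pairs still joined by a rhizome, and the roots of a pair were kept in separate pots for 24 h. In +N pairs both roots received 2.5 mM NH4Cl and in −N pairs both received 0 mM. In split pairs one root received 2.5 mM (+N split) and its partner 0 mM (−N split), which completes a crossed design with 3 libraries per group. All plants were of the strain IRGC10404 and had been raised with NH4Cl as the only nitrogen source, each ramet carrying a few fully developed leaves. RNA came from root tissue in bulk, so fewer cells of a type and less RNA per cell cannot be told apart. Counted reads per library ranged from 39071838 to 56252511, and every pair of replicates differed by more than sampling noise. The treatment text of −N replicate 1 describes the split treatment while its title and source name give −N, and the title was followed. The study's methods name separately prepared ramet pairs as the replicates behind its graphs and do not repeat this for the sequenced libraries, and which +N split and −N split libraries came from the same pair is not stated. The p-values measure the spread between these libraries.

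Rice roots take up ammonium through transporters of the AMT family and assimilate it by glutamine synthetase and glutamate synthase, which draw carbon skeletons from glycolysis and the organic acids. The amino groups then pass to aspartate, alanine and the amino acids made from aspartate. In plants with several root systems, a root can respond to the nutrient around it (a local response) and to the status of the rest of the plant (a systemic response). In a crossed design these can add up on the log scale, so that the own supply multiplies a transcript by the same factor whatever the partner receives, or they can interact, so that the factor differs.

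The response to a root's own ammonium was measured as +N against −N split where the partner was supplied, and as +N split against −N where the partner was deprived. These responses share no library. The interaction is the log2 response with a supplied partner minus the log2 response with a deprived partner. A positive value therefore means a response shifted upward when the partner was supplied. The same number is also the effect of partner supply in supplied roots minus that in deprived roots, and the contrast of uniform pairs (+N and −N) with split pairs. A difference made by the partner's supply and a difference made by being split at all cannot be told apart in this design.

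By the quasi-likelihood test of edgeR, with p adjusted by Benjamini-Hochberg over all genes, 16 of the 25005 genes (0.0640%) had an interaction at an adjusted p under 0.05, of which 13 (0.0520%) were positive and 3 (0.0120%) negative. An unadjusted p under 0.05 was found for 2304 genes (9.21%), 1330 positive (5.32%) and 974 negative (3.90%). The DESeq2 Wald test called 206 positive and 128 negative genes, among them all 16. With same-numbered split libraries treated as pairs, limma voom called 6 genes, all among the 16, against 13 without the pairs. Without a single library the quasi-likelihood test called 36 genes when −N split replicate 1 was left out, 59 when −N replicate 2 was left out and 7 to 10 for each of the other libraries. Leaving out −N replicate 1, the library with conflicting labels, gave 9, all among the 16. Called without every single library in turn were 7 of the genes (OL06G002570, unmappedContigsG000105, OL01G000575, OL03G003255, OL07G001710, OL03G000575 and OL02G000468). The other 9 kept the call without −N replicate 2 and lost it without 8 to 11 of the 12 libraries each, at adjusted p values of 0.0501 to 0.124, so these stood close to the threshold.

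For most genes the data bounded the interaction rather than only missing it. The median standard error was 0.222 on the log2 scale, and the median 95% interval reached 0.482 to either side of the estimate. In 16958 genes (67.8%) this interval lay inside −1 to 1, meaning that the response differed by less than 2-fold between partner states. In 69 genes (0.276%) it lay wholly beyond these bounds, and 11 of them had a called interaction. The intervals hold for single genes and are not adjusted for the number of genes tested. Among the 9351 genes whose own response averaged over the partner states was called (37.4%), 6791 (72.6%) had an interval inside −1 to 1. The median log2 own response was 0.58 with a supplied and 0.59 with a deprived partner in genes called higher. In genes called lower it was −0.45 and −0.50. An interval inside −1 to 1 can therefore still hold an interaction as large as the response itself.

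The own response itself was broad in both partner states. It was called in 5816 genes (23.3%) with a supplied partner and in 6045 genes (24.2%) with a deprived partner. Of these, 3705 genes were called in both with the same sign and 9 with opposite signs. A further 2102 genes passed the threshold only with a supplied partner and 2331 only with a deprived partner. In these groups, 10 and 2 genes had a called interaction, so passing the threshold in one partner state alone did not show a difference between states. Across all genes the responses had a Pearson r of 0.699 and a Spearman rho of 0.672, as a description only, since genes share libraries and depth. The plot of the responses in both partner states shows this cloud along the line of equal values, with the called genes off it.

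**Figure D1:**
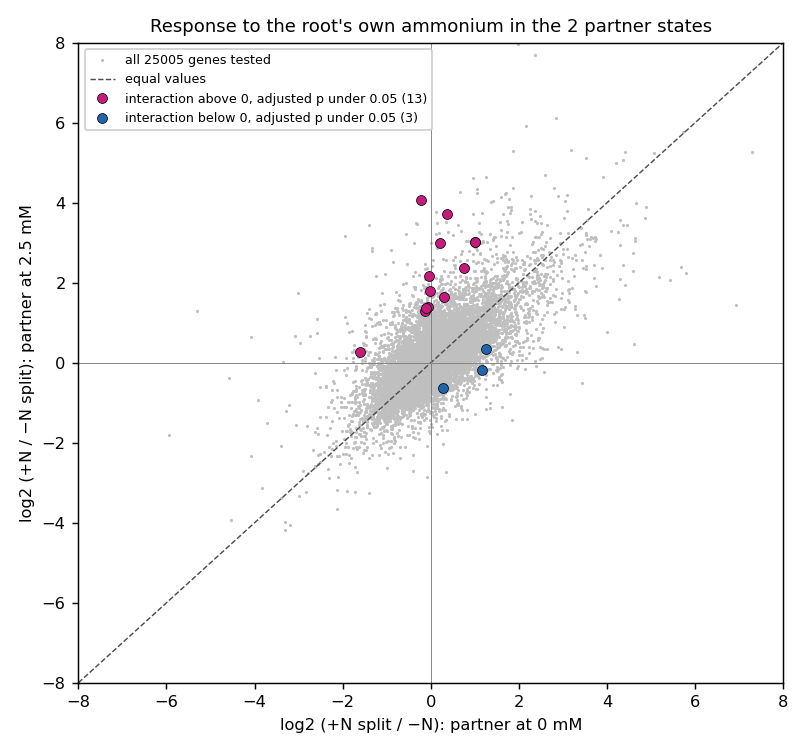
Log2 response to the root's own ammonium with a supplied partner (vertical axis, +N over −N split) against that with a deprived partner (horizontal axis, +N split over −N). Grey points are the 25005 genes tested (2 lie outside the axes), the dashed line marks equal responses, and the 13 positive and 3 negative interactions past an adjusted p of 0.05 are coloured. Most positive genes sit near 0 on the horizontal axis.

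A recurring form ran through the 13 positive genes. In 12 of them −N split was the group with the lowest mean, and in 12 the own response was called with a supplied partner, against 4 with a deprived partner. Put the other way, all 13 had a called partner effect in deprived roots and 3 had one in supplied roots. These shares describe genes chosen by the interaction, which is made of the same libraries, and are no test.

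The description AP2, a DNA-binding domain of plant transcription factors, was held by 3 of the positive gene models, of which 2 are near-identical. OL03G000575 (AP2) was the called gene with the most reads. Its level was 323, 404 and 325 CPM in +N against 105, 117 and 116 CPM in −N split roots, and 584, 506 and 580 CPM in +N split roots against 474, 387 and 493 CPM in −N. The −N split libraries lay below all others, while the −N libraries, equally without ammonium of their own, fell within the range of the supplied ones. The log2 own response was 1.64 with a supplied partner (adjusted p = 4.3e-06) and 0.30 with a deprived partner (adjusted p = 0.075), an interaction of 1.33 (standard error 0.163, adjusted p = 0.00874, edgeR). OL01G001287 (AP2) had 66.5, 79.4 and 67.7 CPM in +N against 7.34, 10.2 and 9.01 CPM in −N split roots, and 143, 152 and 155 CPM in +N split roots against 101, 47.5 and 76.5 CPM in −N. In both partner states the supplied roots lay above the deprived ones without overlap, and the factor between them differed. Its log2 own response was 3.01 with a supplied and 0.999 with a deprived partner (interaction 2.01, standard error 0.299, adjusted p = 0.0374, edgeR). OL01G001279 (AP2) followed it closely, with an interaction of 2.003 (standard error 0.304, adjusted p = 0.0396), and its CPM was 0.928 to 0.986 times that of OL01G001287 in every library. Such near-identical gene models may share reads, so they cannot be counted as separate findings. The adjusted p reached 0.168 for each over the alternatives, with interactions of 1.74 to 2.26 for OL01G001287.

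DUF1637 is the domain of plant cysteine oxidases, enzymes that use oxygen to mark a group of AP2-type transcription factors for breakdown in Arabidopsis. The called gene OL01G000575 is described only by this domain. It was measured at 104, 120 and 100 CPM in +N against 27.9, 28.2 and 36.8 CPM in −N split roots, and at 155, 146 and 176 CPM in +N split roots against 161, 133 and 187 CPM in −N. Among roots with a deprived partner the supplied and deprived libraries overlapped, whereas the −N split libraries stood apart from all 9 others. The log2 own response was 1.80 with a supplied partner and −0.01 with a deprived partner (interaction 1.82, standard error 0.200, 95% interval 1.38 to 2.25, adjusted p = 0.00537, edgeR). It stayed past the threshold under all 21 alternatives.

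OL06G002570, described by DUF581, a plant zinc-finger domain, had the smallest p of all genes. Its CPM was 45.1, 49.6 and 43.9 in +N against 19.7, 17.2 and 19.5 in −N split, and 63.0, 60.3 and 61.5 in +N split against 71.6, 57.5 and 72.3 in −N. The own response was 1.30 with a supplied partner and −0.12 with a deprived partner (log2, interaction 1.42, standard error 0.141, adjusted p = 0.00537, edgeR). The gene model unmappedContigsG000105, on a contig not placed on a chromosome, had an interaction of 1.47 (standard error 0.154, adjusted p = 0.00537), and the CPM of OL06G002570 was 0.956 to 1.09 times its own in every library. Again the calls may rest on shared reads. Counting each near-identical set once leaves 14 distinct profiles among the 16 called genes.

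The positive gene with the largest interaction was OL03G003255, of unknown function. It had 44.4, 77.2 and 42.6 CPM in +N against 4.93, 3.16 and 1.63 CPM in −N split roots, and 79.2, 121 and 95.3 CPM in +N split roots against 127, 82.4 and 132 CPM in −N. A deprived root thus held little of this transcript when its partner was supplied, and when its partner was deprived too it held at least as much as the supplied roots on average. The interaction was 4.29 on the log2 scale (standard error 0.481, 95% interval 3.24 to 5.33, adjusted p = 0.00537, edgeR), and leaving out each library kept it between 3.94 and 4.73. OL07G001710, which the tables used here do not describe, had 21.6, 22.4 and 18.7 CPM in +N against 3.14, 2.12 and 2.59 CPM in −N split roots, and 33.9, 26.8 and 30.1 CPM in +N split roots against 33.5, 16.7 and 28.2 CPM in −N (interaction 2.78, standard error 0.314, adjusted p = 0.00537, edgeR). It shows the same form, and 1 of 21 alternatives ended its call, at an adjusted p of 0.0762.

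Of the remaining positive genes, OL03G003498, described as ShK domain-like, had an interaction of 1.45 (standard error 0.215, adjusted p = 0.0374, edgeR). Its +N libraries held 53.7, 49.3 and 45.8 CPM against 16.7, 18.4 and 21.7 CPM in −N split roots, while the +N split libraries at 60.9, 41.4 and 60.7 CPM overlapped those of −N at 63.0, 49.8 and 57.6 CPM. OL01G003312, without a description, had an interaction of 1.61 (standard error 0.246, adjusted p = 0.0396), with 134, 91.4 and 89.4 CPM in +N against 23.4, 19.4 and 18.2 CPM in −N split roots and 90.9, 106 and 129 CPM in +N split roots against 66.6, 56.1 and 70.6 CPM in −N. Here the own response was called in both partner states, at 2.37 and 0.75 on the log2 scale. OL04G002533, also without a description, was the positive gene with the largest p, an interaction of 2.22 (standard error 0.341, adjusted p = 0.0402, edgeR). Its level was 14.3 to 18.1 CPM in +N against 3.00 to 4.05 CPM in −N split roots, and 20.1 to 23.0 CPM in +N split roots against 15.4 to 33.1 CPM in −N. In each of these genes −N split had the lowest libraries.

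OL02G000183, described as L-gulonolactone oxidase 2, a name given to enzymes of ascorbate synthesis, was positive in another form. Its level was 13.0, 17.5 and 11.9 CPM in +N against 14.1, 11.4 and 9.56 CPM in −N split roots, and 7.77, 9.21 and 8.97 CPM in +N split roots against 32.2, 25.3 and 21.7 CPM in −N. The −N libraries were the highest and the +N split libraries the lowest, so the own response was a fall with a deprived partner (log2 −1.61, adjusted p = 0.0001) and 0.27 with a supplied partner (adjusted p = 0.33). The interaction was 1.88 (standard error 0.268, adjusted p = 0.0372, edgeR).

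A small chain of Rubisco, the carbon-fixing enzyme of green tissue, was also called. OL02G000345 had 34.1, 42.5 and 30.9 CPM in +N against 4.89, 1.35 and 1.86 CPM in −N split roots, and 24.0, 36.05 and 42.4 CPM in +N split roots against 21.6, 27.9 and 30.0 CPM in −N (interaction 3.36, standard error 0.502, adjusted p = 0.0374, edgeR). All 20 photosynthesis genes of the list used as markers of green tissue had an interaction above 0 (49.2% of all genes lay below 0), with a median of 0.63 on the log2 scale against 0.00 over all genes tested, but 1 was called and 2 had an unadjusted p under 0.05. Their summed level was 2279 to 2951 CPM in +N against 615.6 to 2016 CPM in −N split roots, and 1409 to 3468 CPM in +N split roots against 1409 to 2066 CPM in −N, with none of the 20 at 0 in any library. Replicates 2 and 3 of −N split held the lowest sums, 713.9 and 615.6 CPM, and replicate 1 the highest of that group. By its sum of 2016 CPM replicate 1 lay within the range of −N, while its OL02G000345 level of 4.89 CPM lay below every −N library. Replicates 2 and 3 lay below every −N library in both. Leaving out −N split replicate 1 took the median of the list to 1.52, while 1.17 was found on omission of +N split replicate 3 and 0.29 on that of −N split replicate 3. The part of green-tissue transcripts in this and the other interactions was not tested.

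The 3 negative genes had their lowest mean in −N roots. OL02G000468 carries the C-terminal domain of glyceraldehyde 3-phosphate dehydrogenase, the enzyme of the oxidative step of glycolysis. Its level was 139, 141 and 132 CPM in +N against 107, 112 and 108 CPM in −N split roots, and 190, 184 and 204 CPM in +N split roots against 82.5, 86.4 and 72.6 CPM in −N. No library of one group overlapped another, and the order ran +N split, +N, −N split, −N. Its log2 own response was 0.34 with a supplied partner (adjusted p = 0.0093) and 1.26 with a deprived partner (adjusted p = 1.2e-06), an interaction of −0.92 (standard error 0.111, adjusted p = 0.00874, edgeR) that held under all 21 alternatives. It was the single gene whose partner effect was called in both roots with opposite signs, −0.48 in supplied roots and 0.44 in deprived roots.

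OL07G001068, described by DUF588, a membrane-protein domain of the family of Casparian strip proteins, was measured at 34.3, 27.0 and 30.0 CPM in +N against 29.9, 40.0 and 32.7 CPM in −N split roots, and at 35.5, 31.5 and 37.8 CPM in +N split roots against 13.0, 16.8 and 16.8 CPM in −N. The −N libraries stood alone below the other 9 (interaction −1.34, standard error 0.197, adjusted p = 0.0374, edgeR). OL08G000568, without a description, had 13.6, 11.4 and 13.4 CPM in +N against 19.7, 19.8 and 20.3 CPM in −N split roots, and 12.8, 13.7 and 14.0 CPM in +N split roots against 11.2, 10.5 and 11.6 CPM in −N (interaction −0.92, standard error 0.138, adjusted p = 0.0374, edgeR). This gene instead stood apart through high −N split libraries. The negative gene with the next smallest p, OL05G000437, described as peroxidase 5, missed the threshold with an interaction of −1.07 (adjusted p = 0.0558, range over the alternatives 1.85e-05 to 0.154, edgeR and DESeq2), and its −N libraries at 34.6 to 38.7 CPM lay below all others.

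**Figure D2:**
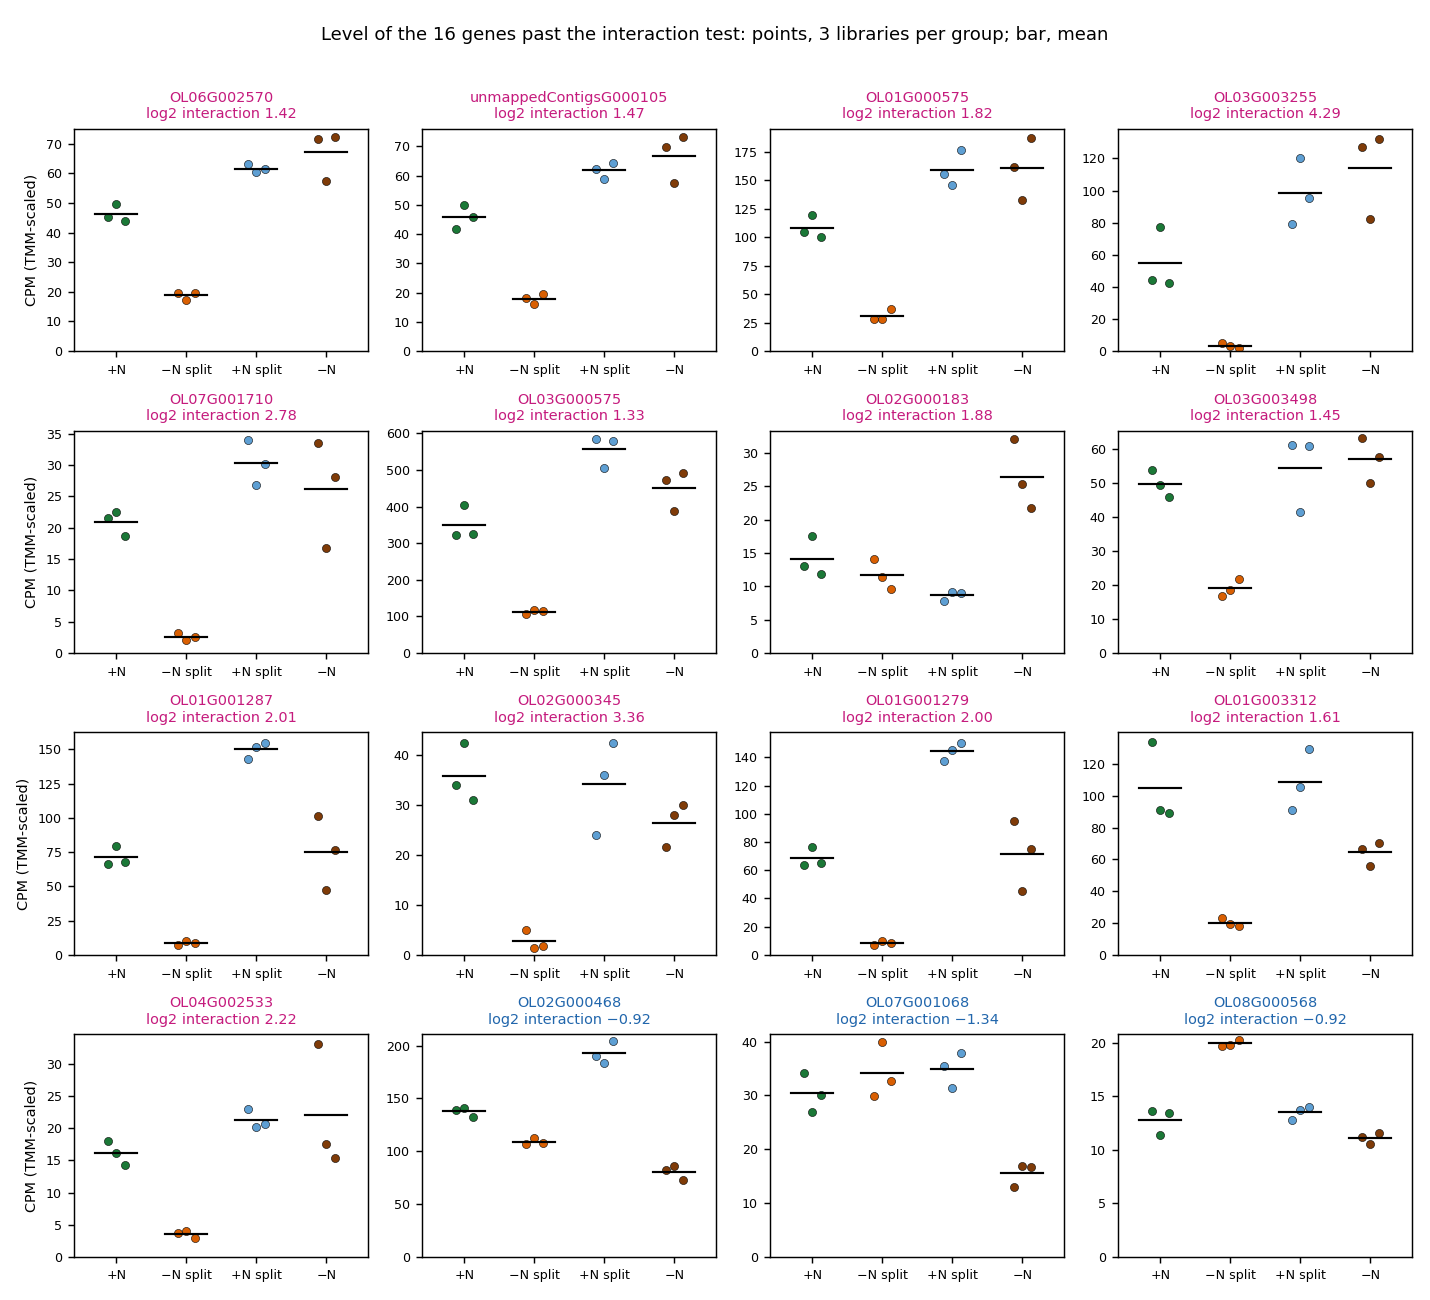
TMM-scaled CPM of the 16 genes with a called interaction in +N, −N split, +N split and −N roots. Points are the 3 libraries per group, bars their means, and each vertical axis starts at 0. In 12 of the 13 positive genes (first 13 panels) the −N split libraries have the lowest mean, and in the 3 negative genes (last 3 panels) the −N libraries do.

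The same genes were then read as partner effects. All 16 had a called partner effect in deprived roots and no overlap between −N split and −N libraries. Over all genes, 1001 (4.00%) had a called partner effect in deprived roots and 196 (0.784%) in supplied roots. The first number was 467 without −N replicate 1, the library with conflicting labels, and the other was 6 without +N split replicate 3. Libraries did not overlap in 24.0% of all genes between −N split and −N, and in 16.5% between +N and +N split. Partner effects passed the threshold in both kinds of root for 105 genes with the same sign and 1 with opposite signs. They did so in deprived roots only for 895 genes and in supplied roots only for 90. Of the 895 genes, 12 had a called interaction and 557 (62.2%) an unadjusted p under 0.05 for it, against 9.21% of all genes, a share raised by the choice of genes on the same libraries. The difference in number between 1001 and 196 is therefore not a difference shown gene by gene. The plot of partner effects in supplied and deprived roots places the positive genes low on its vertical axis and nearer to 0 on its horizontal one.

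**Figure D3:**
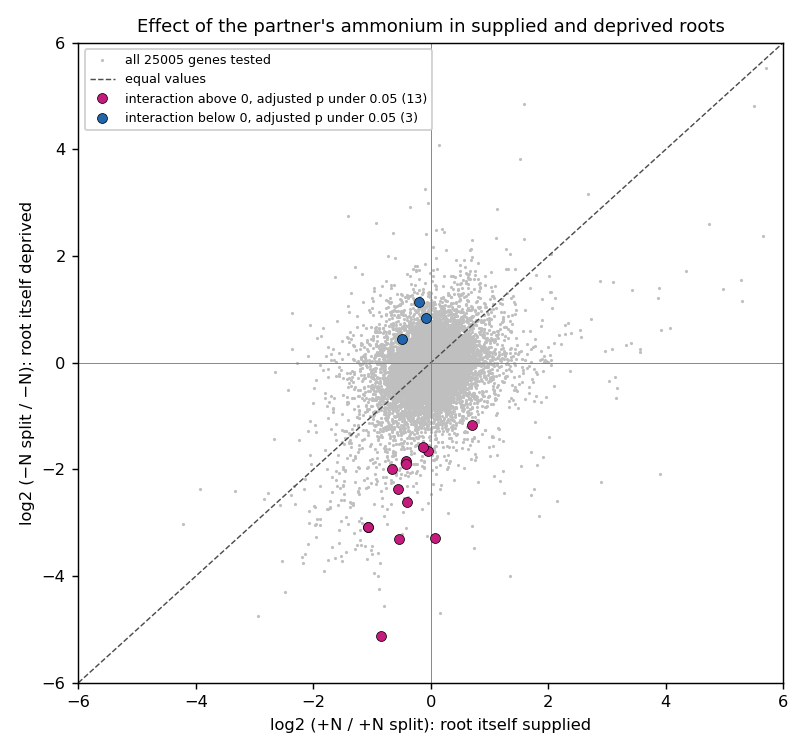
Log2 effect of the partner's ammonium in deprived roots (vertical axis, −N split over −N) against that in supplied roots (horizontal axis, +N over +N split). Grey points are the 25005 genes tested (4 lie outside the axes), the dashed line marks equal effects and the called interactions are coloured. The lowest coloured point is OL03G003255, at −5.13 in deprived and −0.84 in supplied roots.

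Averaged over both kinds of root, the partner effect was called in 1397 genes (5.59%), with higher transcripts beside a supplied partner in 486 (1.94%) and lower ones in 911 (3.64%). Without −N replicate 3 the number was 910. The average and the interaction are separate contrasts of the same groups. Among the 911 lower genes, 640 (70.3%) had an interaction above 0 (12 called), and among the 486 higher genes 163 (33.5%) did, against 12695 of all 25005 genes. The smallest p among lower genes belonged to OL09G001188, described as plant cysteine oxidase 2, with 7.79, 8.41 and 7.86 CPM in +N against 25.1, 20.7 and 22.4 CPM in +N split roots, and 1.81, 2.19 and 2.80 CPM in −N split roots against 10.4, 10.1 and 13.1 CPM in −N. In either kind of root the libraries with a supplied partner lay below the others, a log2 average partner effect of −1.90 (adjusted p = 1.1e-05), while the interaction of 0.80 did not pass (adjusted p = 0.258, edgeR). OL03G000575 and OL06G002570, described above, followed it. OL01G003097, a haloacid dehalogenase-like hydrolase, had an average partner effect of −1.05 (adjusted p = 1.3e-05) and an interaction of 0.25 whose 95% interval was −0.05 to 0.55 (adjusted p = 0.632, edgeR).

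On the higher side the 4 smallest p values were those of OL03G001364, OL06G002065, OL06G001990 and OL08G001025. OL03G001364, without a description, had 18.1 to 19.5 CPM in +N against 10.1 to 12.6 CPM in +N split roots, and 27.4 to 28.6 CPM in −N split roots against 17.2 to 18.5 CPM in −N. Its partner effects of 0.72 and 0.65 were nearly alike, and the 95% interval of the interaction was −0.21 to 0.36. OL06G001990, a polysaccharide biosynthesis protein, had partner effects of 0.49 in supplied and 0.65 in deprived roots (interaction −0.17, 95% interval −0.45 to 0.12). OL06G002065, described as cytochrome P450 71D7, had 0.81 and 1.88 (interaction −1.06, adjusted p = 0.277, edgeR), and OL08G001025, a phosphoenolpyruvate carboxylase, had 0.80 and 1.58 (interaction −0.78, adjusted p = 0.406, edgeR). Supplied and deprived roots thus moved in the same direction in all 4 genes. The intervals of OL03G001364 and OL06G001990 lay inside −1 to 1 but still allow unequal effects. Those of OL06G002065 and OL08G001025, −1.72 to −0.41 and −1.37 to −0.18, lay below 0, on the side of a larger effect in deprived roots. These intervals are not adjusted for the number of genes, and neither interaction passed the adjusted threshold.

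Gene lists for the metabolism around ammonium were taken from the descriptions in the study's supplementary tables, which hold genes picked from these libraries, so their direction is not independent evidence. Their counts and median interactions are read beside the median of 0.00 and the 0.0640% called over all genes. Of all genes, 5.32% were positive and 3.90% negative at an unadjusted p under 0.05 (edgeR), and 49.2% lay below 0.

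Low-oxygen and fermentation genes lay mostly above 0. Of 15 genes, 1 was called positive (OL01G000575) and 0 negative in edgeR's test, 7 were positive and 1 negative at an unadjusted p under 0.05, 11 lay above 0, and the median was 0.70. All 15 were called higher in supplied roots on average (18.5% of all genes were), and 12 were called lower with a supplied partner on average, against 3.64% of all genes. All 4 genes described as cysteine oxidase or DUF1637 lay above 0, OL03G002532 at 2.23 (adjusted p = 0.0947), OL01G000575 at 1.82, OL09G001188 at 0.80 and OL05G002624 at 0.70 (adjusted p = 0.473, edgeR). OL03G002532 had 27.9, 36.5 and 21.2 CPM in +N against 5.26, 4.48 and 4.61 CPM in −N split roots, and 59.9, 52.9 and 81.2 CPM in +N split roots against 74.2, 27.0 and 52.5 CPM in −N. Its −N split libraries stood apart and the −N libraries spread widely. Alcohol dehydrogenase 1 (OL11G000555), which regenerates NAD in fermentation, had 710, 818 and 567 CPM in +N against 61.9, 62.1 and 98.0 CPM in −N split roots, and 1337, 1643 and 1905 CPM in +N split roots against 493, 300.3 and 425 CPM in −N (interaction 1.23, adjusted p = 0.214, edgeR). Own supply raised it in both partner states, by 3.24 and 2.003 on the log2 scale. Pyruvate decarboxylase, the step before it, gave 1.07 for OL05G001771 (standard error 0.589) and −0.02 for OL03G001290 (standard error 0.243), and another alcohol dehydrogenase, OL03G000621, gave −0.45, so the members did not share a direction.

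Glycolysis lay on the other side. Of 37 genes, 1 was called negative (OL02G000468) and 0 positive in edgeR's test, 9 were negative and 0 positive at an unadjusted p under 0.05, 28 lay below 0 and the median was −0.24. The median log2 own response of the list was 0.88 with a supplied partner and 1.17 with a deprived partner. On average over the partner states 32 of the genes were called higher, against 18.5% of all genes. A phosphofructokinase (OL10G000754), an enzyme of the committed step of glycolysis, had 31.7, 30.3 and 31.0 CPM in +N against 22.7, 27.0 and 27.8 CPM in −N split roots, and 30.6, 28.0 and 29.9 CPM in +N split roots against 14.3, 15.4 and 15.6 CPM in −N. It showed the form of the negative gene OL07G001068, with −N alone at the bottom (interaction −0.70, standard error 0.129, adjusted p = 0.0846, edgeR). An enolase (OL03G000999), which makes phosphoenolpyruvate, had an interaction of −0.57 (adjusted p = 0.228, edgeR). In 29 of the 37 genes the 95% interval lay inside −1 to 1, beside 67.8% of all genes.

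Enzymes around phosphoenolpyruvate and the organic acids lay mostly just below 0, 15 of 19 genes, with some positive values further out. None was called (edgeR), 3 were positive and 4 negative at an unadjusted p under 0.05, and the median was −0.11. Phosphoenolpyruvate carboxykinase, which links organic acids and phosphoenolpyruvate, is an example. OL03G001047 had 4915, 5003 and 4464 CPM in +N against 1209, 1630 and 1328 CPM in −N split roots, and 5521, 6670 and 6592 CPM in +N split roots against 1149, 1088 and 902 CPM in −N, an interaction of −0.79 (adjusted p = 0.168, edgeR). OL10G000420 had 102, 163 and 94.99 CPM in +N against 12.4, 12.004 and 22.9 CPM in −N split roots, and 422, 574 and 604 CPM in +N split roots against 192, 129 and 249 CPM in −N, an interaction of 1.44 (adjusted p = 0.284, edgeR). The neighbouring identifier OL10G000421, also of this enzyme, gave 0.93 (adjusted p = 0.491, edgeR), so 2 gene models lay above 0 and 1 below, none past the threshold. OL10G000421 had a profile like that of OL10G000420 at a far lower level, with 26, 30 and 56 reads in −N split. The gene models above 0 may therefore not be separate findings, and both are among the 3 positive ones.

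**Figure D4:**
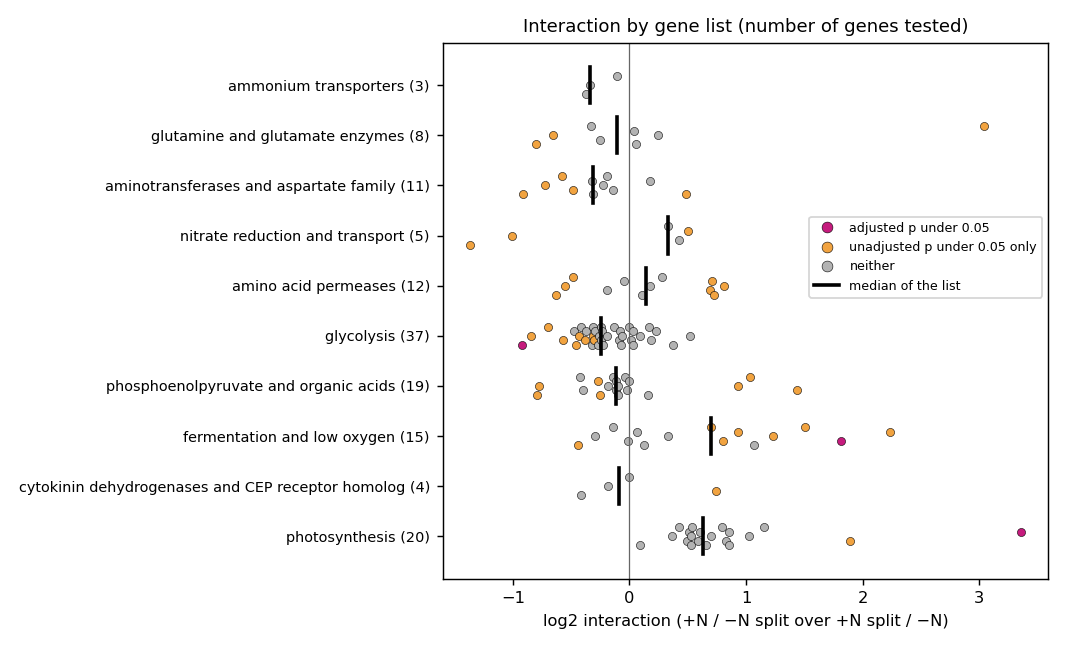
Log2 interaction of each gene (points) in 10 gene lists, with the median of the list as a black bar and the number of genes in parentheses. Colours separate an adjusted p under 0.05, an unadjusted p under 0.05 only, and neither. The medians of the low-oxygen and photosynthesis lists lie at 0.70 and 0.63 and that of glycolysis at −0.24.

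Among the 8 genes for glutamine and glutamate enzymes, own supply was called higher on average for 7, against 18.5% of all genes. The 95% interval of the interaction lay inside −1 to 1 for 4, beside 67.8% of all genes. OlGS1;2 (OL03G000840), a cytosolic glutamine synthetase, had 1026, 1220 and 980 CPM in +N against 90.8, 127 and 160 CPM in −N split roots, and 1696, 1575 and 1841 CPM in +N split roots against 124, 132 and 123 CPM in −N. The deprived libraries overlapped between partner states, and the supplied ones did not. Its log2 own response was 3.09 with a supplied and 3.75 with a deprived partner (interaction −0.66, 95% interval −1.16 to −0.16, unadjusted p = 0.014, adjusted p = 0.4, edgeR). The neighbouring identifier OL03G000841, also a glutamine synthetase, gave −0.80 (adjusted p = 0.4). OlNADH-GOGAT2 (OL05G002363), a glutamate synthase that completes the cycle, had 114, 186 and 135 CPM in +N against 2.03, 1.83 and 4.12 CPM in −N split roots, and 579, 623 and 710 CPM in +N split roots against 8.67, 8.11 and 19.4 CPM in −N. A supplied partner went with lower values in both kinds of root, with log2 effects of −2.14 and −2.17, and the own response was 5.76 with a supplied and 5.72 with a deprived partner. Its interaction was 0.04 (standard error 0.470, adjusted p = 0.991, edgeR), the 95% interval of −0.99 to 1.06 being wide for a gene that responds so strongly. None of the 8 interactions was called in edgeR's test, 1 was positive and 2 negative at an unadjusted p under 0.05, and the median was −0.11. The negative ones were the neighbouring OL03G000840 and OL03G000841, which had similar profiles and may not be separate findings. The positive one, OL03G002893 at 3.04, rested on 1 library, +N replicate 2 at 18.1 CPM, with 0.427 to 2.28 CPM in the other 11.

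Aminotransferases and enzymes of the aspartate family were mostly negative, 9 of 11 genes below 0 with a median of −0.31, none called in edgeR's test, and 1 positive and 4 negative at an unadjusted p under 0.05. OlAK (OL03G003830), the aspartokinase that opens the aspartate pathway, had 224, 305 and 208 CPM in +N against 49.0, 62.0 and 66.4 CPM in −N split roots, and 738, 815 and 934 CPM in +N split roots against 141, 94.6 and 128 CPM in −N (interaction −0.72, adjusted p = 0.392, edgeR). OlASADH (OL03G003219), the next enzyme, gave −0.49 (standard error 0.135, adjusted p = 0.265), and OlAK-HSDH1 (OL08G000963), which carries a homoserine dehydrogenase domain, −0.58 (standard error 0.167, adjusted p = 0.281, edgeR). OlAspAT (OL06G001607), the aspartate aminotransferase that feeds them, gave 0.49 (standard error 0.180, adjusted p = 0.43). An alanine aminotransferase, OL03G000581, had the lowest value of the list, −0.91 (adjusted p = 0.183), and OlAlaAT1 (OL10G000682) gave −0.32.

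Of the 19 genes that the study's tables list with a name beside their identifier, none had a called interaction in edgeR's test, 2 were positive and 5 negative at an unadjusted p under 0.05, and the median was −0.26. The study picked them from these same libraries, and +N split, which enters the interaction with a negative sign, was the group with the highest mean in 18. Their own response was called in 18 of 19 genes with a supplied partner (23.3% of all genes) and in all 19 with a deprived partner (24.2% of all genes). These shares are raised by how the genes were picked. In 14 of the 19 the 95% interval lay inside −1 to 1, beside 67.8% of all genes. OlPPDKA (OL03G002044), a pyruvate phosphate dikinase, had the highest value, 1.03 (95% interval 0.07 to 1.99, adjusted p = 0.499, edgeR).

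These genes were also compared on the CPM scale. On the CPM scale the signed difference, supplied minus deprived roots, was lower with a supplied partner in all 19 genes, and in 17 of them by more than 2 standard errors of the replicates. Since +N split was the highest group in 18, this direction follows in large part from how the genes were picked and is given as a description. The remaining gene, the glutamine synthetase OL02G003003, was lower in supplied roots, with means of 745.1 CPM in +N against 1457 CPM in −N split roots and 664.2 CPM in +N split roots against 1350 CPM in −N, so its gap was the wider one with a supplied partner (difference of differences −25.8 CPM, standard error 113). For OlNADH-GOGAT2 the means were 145 ± 37.0 CPM in +N against 2.66 ± 1.27 CPM in −N split roots, and 637 ± 66.5 CPM in +N split roots against 12.1 ± 6.36 CPM in −N (SD, n = 3 each), a difference of differences of −483 CPM (standard error 44.1). For the glyceraldehyde 3-phosphate dehydrogenase OL02G002091 it was −2697 CPM (standard error 616) while the log2 interaction was 0.17. Among the 16 called genes the CPM value was below 0 in 5, the 3 negative ones and both near-identical AP2 genes, whose values of −12.5 and −12.6 CPM had standard errors of 16.4 and 15.5.

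**Figure D5:**
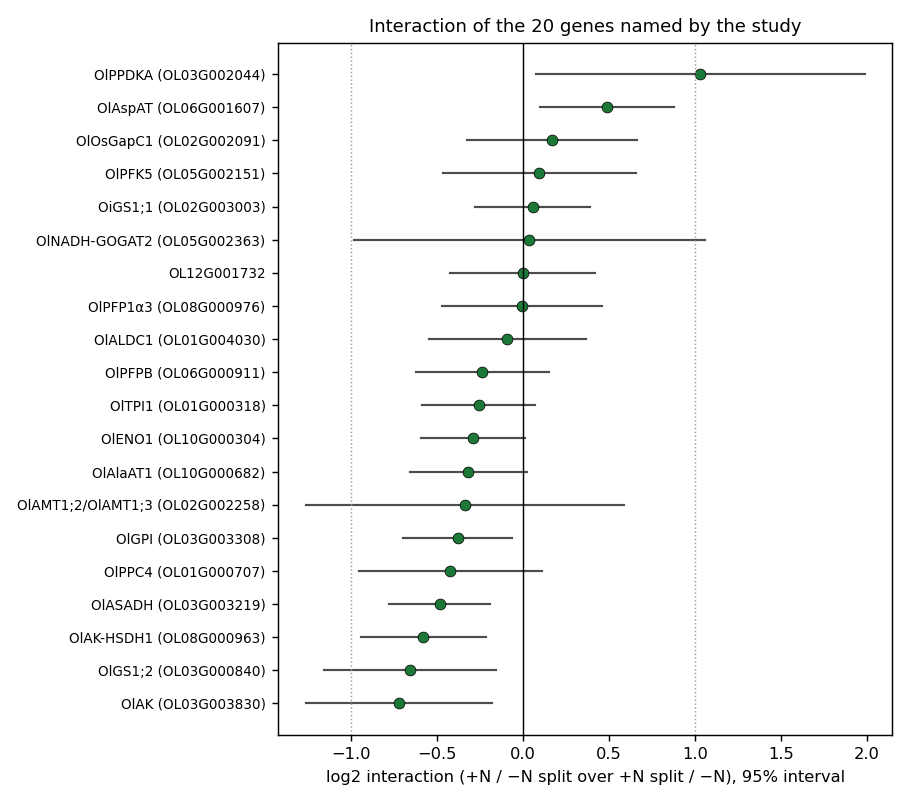
Log2 interaction (points) with its 95% interval (lines) for the 19 genes named in the study's tables and the CEP receptor homolog OL12G001732. The solid line marks no interaction and the dotted lines a 2-fold difference of the response. Values run from −0.72 (OlAK) to 1.03 (OlPPDKA), and no gene passed an adjusted p of 0.05.

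Transport and signalling genes showed no called interaction. The 3 ammonium transporter gene models had values of −0.37, −0.34 and −0.11, with OlAMT1;2/OlAMT1;3 (OL02G002258) at 20.2, 24.0 and 17.1 CPM in +N against 7.25, 9.26 and 17.5 CPM in −N split roots, and 47.6, 40.1 and 76.2 CPM in +N split roots against 19.5, 25.4 and 27.1 CPM in −N. Its replicates spread so widely that the 95% interval of −1.26 to 0.59 holds both no interaction and a 2-fold one. Of 12 amino acid permease genes 4 were positive and 3 negative at an unadjusted p under 0.05, none called in edgeR's test (median 0.14). Of the 5 genes for nitrate none was called either, 1 was positive and 2 negative at an unadjusted p under 0.05, and the median was 0.33. A nitrate transporter, OL02G002068, had an interaction of −1.37 (adjusted p = 0.185) with 8.65, 8.004 and 8.59 CPM in +N against 8.36, 9.02 and 5.87 CPM in −N split roots, and 10.8, 7.10 and 8.26 CPM in +N split roots against 2.01, 3.81 and 3.46 CPM in −N. The −N libraries were again alone at the bottom. Nitrate reductases ran from −1.005 (OL02G003220) to 0.50 (OL08G001452). Of the cytokinin dehydrogenases, which break down cytokinin, OL01G004297 gave −0.18 and OL10G001138 gave −0.41, neither with an unadjusted p under 0.05. The other, OL01G000590, had 9.54, 6.98 and 7.84 CPM in +N against 4.31, 4.51 and 4.67 CPM in −N split roots, and 12.1, 9.73 and 12.6 CPM in +N split roots against 11.5, 11.8 and 8.64 CPM in −N (interaction 0.74, adjusted p = 0.309, edgeR). OL12G001732, the homolog of the Arabidopsis receptor of CEP1, a peptide signal of nitrogen-starved roots, gave −0.003 with a 95% interval of −0.43 to 0.42. Its own response was 0.42 in either partner state.

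Genes whose own response passed in both partner states with opposite signs numbered 9, and none of them had a called interaction. All 9 had an unadjusted p under 0.05 for it (edgeR). The interaction is the difference of these responses, so the choice of genes fixed this in advance and it is no test. The 4 with the smallest p were OL09G000873, OL11G001183, OL02G000185 and OL10G000742. OL09G000873, without a description, had 25.0, 24.0 and 23.7 CPM in +N against 35.9, 34.4 and 31.4 CPM in −N split roots, and 28.4, 33.4 and 34.8 CPM in +N split roots against 24.6, 26.7 and 20.2 CPM in −N. Own ammonium went with a lower level beside a supplied partner and a higher level beside a deprived partner, without overlap in either state (interaction −0.92, standard error 0.159, adjusted p = 0.0692, edgeR). OL02G000185, of unknown function, ran the other way, with 35.0, 43.4 and 38.5 CPM in +N against 28.0, 28.7 and 27.4 CPM in −N split roots, and 37.7, 36.2 and 37.6 CPM in +N split roots against 48.4, 41.9 and 64.5 CPM in −N (interaction 0.95, adjusted p = 0.101, edgeR). OL11G001183 gave −0.54 (adjusted p = 0.0917) and OL10G000742 gave −1.64 (adjusted p = 0.111, edgeR). Each of the 4 was past the threshold in 2 or 3 of the 21 alternatives, with adjusted p values from 6.36e-05 to 0.246 over all of them.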

How the data were processed

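The libraries were made from root mRNA. Per the labels and methods, the authors aligned reads with HISAT2, counted reads per gene model with featureCounts and deposited unnormalized counts. The log2 CPM that the authors also deposited equal edgeR's log CPM of those counts (prior count 2) and entered no test. Tool versions, strand setting and the handling of reads that fit several gene models were not stated in the sources used, so near-identical and overlapping genes may share or lose reads. No genome was used, and no coordinates or sequences are given.

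The work used R 4.3.3, edgeR 4.0.16, limma 3.58.1 and DESeq2 1.42.0. Genes passing filterByExpr (minimum count 10, minimum total 15) were scaled by TMM, and 1 mean per group was fitted to all 12 libraries (8 residual degrees of freedom) with glmQLFit. Contrasts were tested two-sided with glmQLFTest and adjusted over the 25005 genes. For a single gene an exact permutation test of 3 against 3 cannot go below 0.1, while the interaction draws on all 12 libraries. The spread of each gene was drawn toward one shared across genes, giving 12.33 degrees of freedom in total. Calls therefore rest in part on that shared spread. The 95% intervals come from the fit. CPM are TMM-scaled, are not corrected for gene length and compare libraries, not genes. The CPM-scale difference of differences was not tested, and its standard error comes from the replicates' SDs. The method was tested on simulated data.

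Named genes were, in each direction of the interaction, the 12 called genes with the smallest p, or the 4 with the smallest p where fewer than 4 were called. To these were added the genes named in the study's tables and OL12G001732, the 4 genes with the smallest larger p among own responses called with opposite signs, and the 4 with the smallest p in each direction of the average partner effect. OL04G002533 and the example members of lists were chosen after their values were seen. The members and lists were chosen with earlier results of these data known. Descriptions were found for 3412 tested genes, and other genes are called without a description.

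Alternatives were DESeq2 size factors, the likelihood ratio test of edgeR, the DESeq2 Wald test, limma voom, no filter, a filter of 1 CPM in 3 libraries, the replicate number or split pairs as a block, thinning to the smallest library, each library left out, adjusted p thresholds of 0.01 and 0.1, and at least a 2-fold difference.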

Additional observations from a re-analysis of the deposited data

Results flagged for a closer look

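A called interaction is itself a difference of the own response between partner states, so the 16 genes past the threshold are listed for a closer look (edgeR's quasi-likelihood test). The positive log2 interactions were 1.42 for OL06G002570, 1.47 for unmappedContigsG000105, 1.82 for OL01G000575, 4.29 for OL03G003255, 2.78 for OL07G001710, 1.33 for OL03G000575, 1.88 for OL02G000183, 1.45 for OL03G003498, 2.01 for OL01G001287, 3.36 for OL02G000345, 2.003 for OL01G001279, 1.61 for OL01G003312 and 2.22 for OL04G002533. The negative ones were −0.92 for OL02G000468, −1.34 for OL07G001068 and −0.92 for OL08G000568. Groups of 3 libraries were too small for the search for single outlying libraries.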

How the results depend on the processing

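None of the 16 called interactions changed sign under the 21 alternatives run for each. Of these 336 values 229 kept the call and 107 lost it, 86 of them by leaving out a library. Another normalization (16 genes), no filter (19), the 1 CPM filter (17), thinning (15) and limma voom (13) left the number within a narrow range. The likelihood ratio test of edgeR called 174 positive and 79 negative genes and the DESeq2 Wald test 206 and 128, all 16 among them in either test. These tests also gave 582 and 756 partner effects in supplied roots and 1576 and 1861 in deprived roots, and DESeq2 gave 2352 average partner effects. An adjusted p under 0.01 left 6 positive and 1 negative gene, one under 0.10 gave 51 and 19, and a 2-fold minimum left 1 negative gene. Leaving out 1 library gave 6 to 50 positive and 1 to 9 negative genes, 6 to 199 partner effects in supplied roots, 467 to 1016 in deprived roots and 910 to 1375 on average. The cause was not tested.

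Correlations of deviations between same-numbered libraries ran from −0.159 to 0.233, over 0.1 in 5 of 18. Between +N split and −N split they ran from −0.13 to 0.104. With 3 libraries per group they cannot show whether same-numbered split libraries came from 1 ramet pair. With the replicate number as a block 11 positive and 1 negative gene were called, 10 of the 16 among them. With split pairs as a block in limma voom (consensus correlation 0.184) 5 positive and 1 negative gene were called.

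Genes near 0 and past no threshold changed sign. OL05G002363 was −0.029 in limma voom and −0.030 with the split-pair block. OL08G000976 was 0.00063 and 0.00055 in the same fits and 0.010 with the replicate number as a block. OL12G001732 was 0.013 and 0.013 in them and 0.0025 with the 1 CPM filter. Without 1 library the interaction ran from −0.22 to 0.073 for OL01G004030, −0.0075 to 0.33 for OL02G002091, −0.58 to 0.12 for OL02G002258, −0.033 to 0.27 for OL05G002151, −0.49 to 0.50 for OL05G002363, −0.14 to 0.15 for OL08G000976, −0.012 to 0.14 for OL02G003003, −0.15 to 0.10 for OL12G001732 and −0.0055 to 0.15 for OL03G001364. With 3 libraries per group, the median interval leaves interactions below about 0.482 on the log2 scale open.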
